A study of Bos taurus with 6 samples.

Results

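The genes described here were SREBF1, SREBF2, SCAP, INSIG1, INSIG2, ACLY, ACACA and FASN, the regulators of the sterol regulatory element binding proteins (SREBPs) and the enzymes that build fatty acids from citrate. They were the rows of the deposited gene table whose gene name was one of these symbols, so that 8 of 17663 genes were taken and each symbol matched 1 row. RNA was sequenced from primary bovine fetal fibroblasts (bEFs) in 6 libraries, and the question was how FT cells differed from WT cells. FT cells carried the fat-1 transgene, a Caenorhabditis elegans gene for a desaturase that turns n-6 into n-3 polyunsaturated fatty acids (PUFA), and WT cells had the wild-type genotype. The methods name 3 fetuses per group (FT_1 to FT_3 and WT_1 to WT_3), and the WT fetuses were Luxi cattle, whereas the breed of the FT fetuses and the promoter that drives fat-1 are not given in the sources used here. All fetuses were 50 to 60 days old, and both groups were primary cultures of dissociated body tissue, without head, limbs, viscera or skeleton, kept in DMEM F12 medium with serum. The sample labels do not state that each library came from a fetus of its own, so the p-values measure the spread between these libraries, which may be technical.

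SREBPs are transcription factors that are made as precursors in the membrane of the endoplasmic reticulum. SCAP escorts a precursor to the Golgi, where proteases release the active fragment, and INSIG proteins hold SCAP back when sterols are plentiful. Products of SREBF1 mainly drive fatty acid synthesis and those of SREBF2 cholesterol synthesis and uptake, and PUFA are known in liver cells to lower SREBF1 mRNA. RNA levels do not show how much of a precursor was cleaved.

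Total counts of FT_1, FT_2 and FT_3 were 63366834, 48167642 and 54204446, and those of WT_1, WT_2 and WT_3 were 69777641, 51310741 and 54271927. Counts of the 8 genes ran from 617 for INSIG1 in FT_1 to 11045 for FASN in FT_1, so none was limited by low counts. The top 10 genes held 15.2–15.4% of each FT library and 9.86–10.5% of each WT library.

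FT_1 stood apart from the other FT libraries. The biological coefficient of variation, which is the relative spread beyond counting noise, was 7.65% for FT_2 against FT_3 and 9.05–11.9% for pairs of WT libraries. Between FT_1 and either of the other FT libraries it was 39.2%. The edgeR fold changes of the 8 genes and the edgeR counts of the whole pathway lists are therefore given with and without FT_1. Other values are for all 6 libraries unless stated.

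Fibroblast markers were high in every library, with a lower sum in FT_1. The FPKM values (fragments scaled by gene length and library total) of 10 markers, among them COL1A1, COL1A2, DCN and VIM, summed to 6828, 17047 and 16783 for FT_1, FT_2 and FT_3. In WT_1, WT_2 and WT_3 they summed to 17821, 17272 and 17360, and VIM was the most abundant gene. None of the 10 was at 0 in a WT library. Single markers moved apart: VIM was 1244, 3850 and 4171 in FT_1 to FT_3 and 7312–8178 in WT libraries, whereas PDGFRA was 217.73, 166.38 and 140.57 and 87.0–99.7, and was called higher (edgeR log2 fold change 1.06, adjusted p = 0.00530). LUM was 551 in FT_1, 2759 and 2559 in FT_2 and FT_3, and 1117–1224 in WT libraries.

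Epithelial markers were largely a feature of FT_1. The 6 genes summed to an FPKM of 310.01, 11.04 and 10.83 for FT_1, FT_2 and FT_3, against 10.06, 7.83 and 13.86 in WT_1 to WT_3, and 6 of 6 were highest in FT_1. In FT_1 the most abundant was the keratin gene KRT5, with 171.54 there, 2.57 in FT_2, 1.63 in FT_3 and 0 in every WT library. In each of the other libraries it was the cadherin gene CDH1, at 7.11 in FT_2, 8.41 in FT_3 and 10.03, 7.83 and 13.86 in WT_1 to WT_3. KRT8 and KRT18 were likewise at 0 in every WT library, and EPCAM was at 0 in every library but FT_1, where it was 0.57. Cells of another type and a change of RNA within the same cells cannot be told apart in bulk libraries, and neither can fewer cells of a type and less RNA per cell.

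The extraction notes of the samples speak of an adipose type, although the source given is fetal fibroblasts. Summed markers of fat and liver cells were lower in FT libraries, but single genes differed. The 8 adipocyte markers summed to 5.03, 19.2 and 20.1 in FT_1 to FT_3 and to 154, 140 and 156 in WT_1 to WT_3, and most of the WT sum was FABP4. LEP went the other way in part of the FT group, at 0.03, 4.91 and 4.45 in FT_1 to FT_3 and at most 0.09 in WT libraries (edgeR log2 fold change 5.75, adjusted p = 0.0390), and PLIN1 was 1.31–1.49 in FT and 1.23–1.27 in WT libraries. Among these genes ADIPOQ, which defines mature fat cells, was at 0 in the FT libraries and at most 0.28 in WT libraries. The 4 hepatocyte markers summed to 8.22–22.8 in FT libraries and 116–138 in WT libraries, mostly TTR, while ALB was at 0 in all libraries but WT_2, where it was 0.03. Endothelial markers summed to at most 1.52, leukocyte markers to 3.55–8.04 and skeletal muscle markers to 1.13–5.77. DES was 5.74, 4.01 and 3.17 in FT_1 to FT_3 and at most 0.07 in WT libraries, whereas MYF5 was 0.03, 0.59 and 0.61 in FT_1 to FT_3 and 1.06, 1.31 and 1.93 in WT_1 to WT_3. The part of these marker differences in the results that follow was not tested.

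Both SREBP genes, their escort SCAP and the fatty acid synthase gene FASN were up-regulated in FT cells. No fall passed the test. INSIG2 was lower in every FT library than in any WT library, with an adjusted p just above the threshold. INSIG1, ACLY and ACACA overlapped between the groups.

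With edgeR's quasi-likelihood test on the raw counts, a gene was called at a Benjamini-Hochberg adjusted p under 0.05. Of the 8 genes, 4 were called higher (20.1% of all 13482 tested genes were) and 0 lower (18.9% of all tested genes). INSIG2 had an unadjusted p of 0.0244 in that edgeR test and was called lower by limma on the FPKM values, by DESeq2 and by edgeR without FT_1. The median log2 fold change of the 8 was 0.52, against 0.03 for all tested genes. Without FT_1, edgeR called 4 of 8 higher (30.6% of 13765 tested genes) and 1 lower (31.5%), with a median of 0.46 against -0.02. limma on log2(FPKM + 1), a scale that understates changes of low genes, called 3 of 8 higher (15% of 12247 genes) and 1 lower (29.2%). The limma median was 0.32, against -0.12 for all genes, since FPKM values carry no scaling between libraries beyond their totals. The methods required p under 0.05, with no adjustment named, and a log2 change beyond 1. With unadjusted p, edgeR placed SREBF1, SCAP and FASN higher by that rule, 3 of 8 genes against 10.2% of all. It placed 0 lower, against 8.96% of all.

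**Figure D1:**
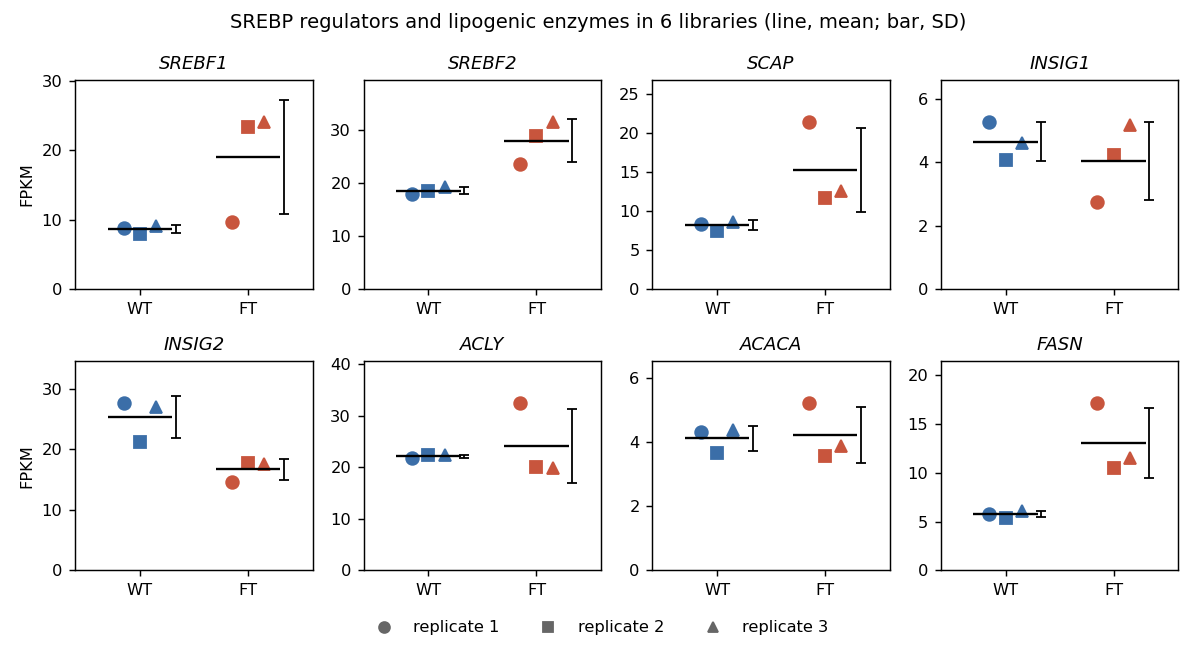
FPKM of the 8 genes in each library, with circles, squares and triangles for replicates 1, 2 and 3 of WT (blue) and FT (red), horizontal lines for means and bars for the SD (n = 3). SREBF1, SREBF2, SCAP and FASN lie higher in every FT library than in any WT library, and FT_1 is the lowest FT point for SREBF1 and the highest for SCAP, ACLY, ACACA and FASN.

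Groups can also be compared by whether their values overlap. In FPKM, 4 of 8 genes lay higher in every FT library than in any WT library (21.8% of all tested genes) and 1 of 8 lay lower (36.9%), while 3 overlapped. An exact permutation test of 3 libraries against 3, two-sided, cannot give a p under 0.10, and that is the value for each of the 5 genes without overlap.

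The transcription factor genes come first. SREBF1 (ENSBTAG00000007884, chromosome 19, 34633133 to 34649168, plus strand, in the coordinates of the deposited table, for which the submitters name only a mouse build, at odds with the cattle gene identifiers, so that the cattle build is not known) encodes the SREBP that favours lipogenic genes. Its FPKM was 9.59, 23.37 and 24.13 for FT_1, FT_2 and FT_3, and 8.81, 7.97 and 9.06 in WT_1, WT_2 and WT_3. FT_2 and FT_3 were far above the WT libraries, whereas FT_1 was barely higher than the highest of them.

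SREBF1 averaged 19.03 ± 8.18 (SD, n = 3) over FT libraries and 8.61 ± 0.571 over WT libraries. In edgeR the gene rose 2.48-fold, a log2 fold change of 1.31 (standard error, SE, 0.36, 95% interval 0.43 to 2.18, adjusted p = 0.0317). Without FT_1 the edgeR log2 fold change was 1.63 (SE 0.08, adjusted p = 1.77e-07). The call was not stable: limma gave 0.96 with an adjusted p of 0.0638, and edgeR with a block for replicate number gave 1.20 (adjusted p = 0.0747). Leaving out any single library other than FT_1 also ended the edgeR call, with adjusted p from 0.0871 without FT_3 to 0.114 without WT_2. The table sums 3 transcripts of SREBF1 into 1 row, so the forms 1a and 1c, which start at different promoters, were not separated. The microRNA gene bta-mir-33b lies within SREBF1 and had counts of 0 to 3 per library.

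SREBF2 (ENSBTAG00000014265, chromosome 5, 112832407 to 112890177, plus strand) encodes the SREBP that favours cholesterol genes. Its FPKM was 23.67, 28.88 and 31.68 in FT_1, FT_2 and FT_3 and 17.94, 18.53 and 19.31 in WT_1, WT_2 and WT_3. The WT libraries were close together, and each FT library was higher than all of them, with FT_1 the nearest. SREBF2 rose 1.69-fold in edgeR, with a log2 fold change of 0.76 (SE 0.13, 95% interval 0.43 to 1.08, adjusted p = 0.00708) and means of 28.1 ± 4.06 and 18.6 ± 0.687. It was 0.87 without FT_1 (SE 0.07, edgeR adjusted p = 4.82e-06), and the call held in each of the edgeR fits that left out 1 library.

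The balance of the 2 factors differed within the FT group. The ratio of SREBF1 to SREBF2 FPKM was 0.405, 0.809 and 0.762 for FT_1, FT_2 and FT_3, and 0.491, 0.430 and 0.469 in the WT libraries. FT_1 lay under the WT range and the other FT libraries well above it. This ratio and those given further on were chosen after the values were seen and are descriptions.

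SCAP (ENSBTAG00000015782, chromosome 22, 52163455 to 52263261, plus strand) encodes the sterol-sensing escort. Its FPKM was 21.51, 11.71 and 12.60 for FT_1, FT_2 and FT_3, and 8.41, 7.46 and 8.66 in WT_1, WT_2 and WT_3. Every FT library was higher than the WT libraries, and FT_1 was 1.77 times the mean of the other FT libraries, the opposite of its place for SREBF1.

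SCAP rose 2.08-fold in edgeR, with a log2 fold change of 1.06 (SE 0.24, 95% interval 0.48 to 1.64, adjusted p = 0.0166) and means of 15.3 ± 5.42 and 8.18 ± 0.633. Without FT_1 the rise was 0.74 on the log2 scale (SE 0.08, edgeR adjusted p = 4.25e-05), so the gene was called without the library in which it was highest. Leaving out WT_1, WT_2 or WT_3 moved the edgeR adjusted p to 0.0646, 0.0736 and 0.0569.

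The INSIG genes encode the retention proteins. INSIG1 (ENSBTAG00000001592, chromosome 4, 117125786 to 117138560, plus strand) is itself a known SREBP target. Its FPKM was 2.74, 4.22 and 5.18 in FT_1, FT_2 and FT_3 and 5.28, 4.08 and 4.59 in WT_1, WT_2 and WT_3. The groups overlapped, and FT_1 was the lowest library. The edgeR log2 fold change was -0.04 with a 95% interval of -0.67 to 0.59 (adjusted p = 0.915), and 0.18 without FT_1 with an interval of -0.12 to 0.49 (edgeR adjusted p = 0.270). Neither interval leaves room for a rise as large as the fitted value for SREBF1, but neither shows equality. The exact permutation p for its FPKM was 0.60.

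INSIG2 (ENSBTAG00000002112, chromosome 2, 69756864 to 69777204, plus strand) had an FPKM of 14.64, 17.80 and 17.57 for FT_1, FT_2 and FT_3. In WT_1, WT_2 and WT_3 it was 27.64, 21.28 and 26.95. The FT libraries were all under the WT libraries, FT_1 the lowest of all and WT_2 the nearest to the FT group.

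The edgeR log2 fold change of INSIG2 was -0.44 (SE 0.15, 95% interval -0.80 to -0.08, adjusted p = 0.0590), with means of 16.7 ± 1.76 and 25.3 ± 3.49. The gene was called in limma (-0.57, adjusted p = 0.0159), in DESeq2 (-0.44, adjusted p = 0.0298) and in edgeR without FT_1 (-0.35, adjusted p = 0.0333). Over the edgeR fits that left out 1 library its adjusted p ran from 0.0333 without FT_1 to 0.182, and it was also called without WT_2 (-0.55, adjusted p = 0.0470). With a length offset, which takes out a smooth trend of the fold changes on length, edgeR gave -0.24 (adjusted p = 0.274), so the size of the difference depended on that choice. With library totals alone as scaling, edgeR gave -0.59 (adjusted p = 0.0197), and the split of all calls moved from 2714 higher and 2547 lower to 2049 and 3394.

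The escort was also set against its retention protein. SCAP to INSIG2 was 1.47, 0.658 and 0.717 for FT_1, FT_2 and FT_3 in FPKM, and 0.304, 0.351 and 0.321 in WT_1, WT_2 and WT_3. Each FT ratio was higher than each WT ratio, FT_1 by far the most. That separation follows from the single genes, since every FT library was higher for SCAP and lower for INSIG2, and adds no evidence to them.

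**Figure D2:**
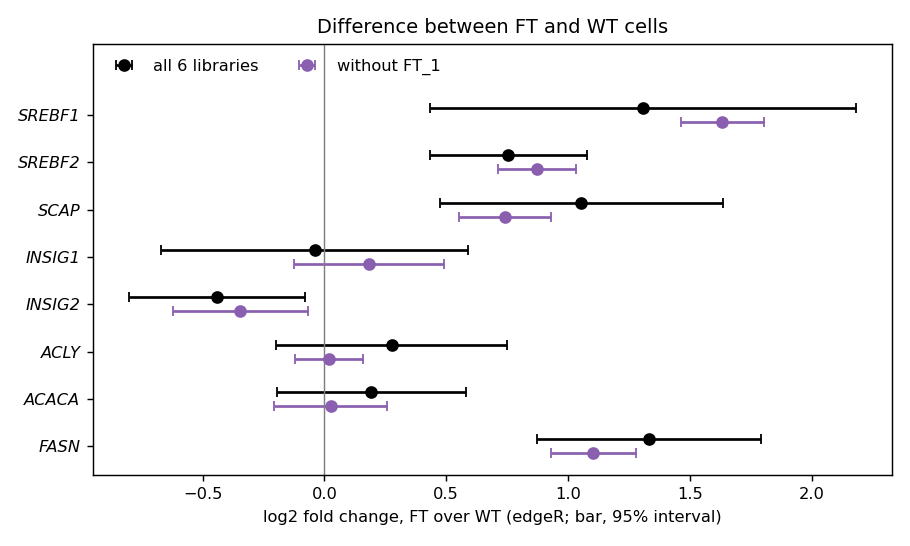
Log2 fold change of FT over WT from edgeR for the 8 genes, with 95% intervals, for all 6 libraries (black) and without FT_1 (purple). Intervals of SREBF1, SREBF2, SCAP and FASN lie above 0 in both fits, those of INSIG2 below 0, and those of INSIG1, ACLY and ACACA span it.

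Of the lipogenic enzymes, ACLY makes cytosolic acetyl-CoA from citrate. ACLY (ENSBTAG00000016740, chromosome 19, 42049435 to 42093855, minus strand) had an FPKM of 32.45, 19.99 and 19.95 for FT_1, FT_2 and FT_3, and 21.83, 22.32 and 22.35 in WT_1, WT_2 and WT_3. FT_1 was the highest library, and the other FT libraries were lower than every WT library. The edgeR log2 fold change was 0.28 with a 95% interval of -0.20 to 0.75 (adjusted p = 0.299). Without FT_1 it was 0.02 with an interval of -0.12 to 0.16 (edgeR adjusted p = 0.798), and limma without FT_1 gave -0.14.

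ACACA carries out the next step, the carboxylation of acetyl-CoA to malonyl-CoA. ACACA (ENSBTAG00000017567, chromosome 19, 13441162 to 13726679, minus strand) had an FPKM of 5.23, 3.56 and 3.90 in FT_1 to FT_3 and 4.33, 3.67 and 4.38 in WT_1 to WT_3. The groups overlapped and FT_1 was again the highest. The edgeR log2 fold change was 0.19 with a 95% interval of -0.20 to 0.58 (adjusted p = 0.374), and 0.03 without FT_1 with an interval of -0.21 to 0.26 (edgeR adjusted p = 0.841). The sign was not settled: edgeR gave -0.09 with a smooth trend on length removed, and limma without FT_1 gave -0.11. TADA2A lies on the opposite strand within the span of ACACA, with an FPKM of 9.55–13.1 in FT libraries and 13.9–16.3 in WT libraries, and whether reads were counted by strand is not stated, so reads of the 2 genes may be mixed.

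FASN (ENSBTAG00000015980, chromosome 19, 50775674 to 50796012, plus strand) encodes the synthase that joins malonyl-CoA units into palmitate. Its FPKM was 17.16, 10.54 and 11.51 for FT_1, FT_2 and FT_3, and 5.81, 5.41 and 6.11 in WT_1, WT_2 and WT_3. The groups were well apart, and FT_1 was the highest library, 1.56 times the mean of FT_2 and FT_3.

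FASN rose 2.52-fold in edgeR, with a log2 fold change of 1.33 (SE 0.19, 95% interval 0.87 to 1.79, adjusted p = 0.00355) and means of 13.1 ± 3.58 and 5.78 ± 0.351. The ratio of mean FPKM was 2.26, since edgeR also applied TMM factors of 0.934–0.968 to FT libraries and 1.05–1.06 to WT libraries. Without FT_1 the edgeR log2 fold change was 1.10 (SE 0.08, adjusted p = 1.92e-06). In limma it was 1.03 (adjusted p = 0.00604), and with the length trend removed edgeR gave 1.04.

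FASN was also set against the enzymes that precede it. FASN to ACACA was 3.28, 2.96 and 2.95 in FT_1, FT_2 and FT_3 and 1.34, 1.47 and 1.39 in WT_1, WT_2 and WT_3. FASN to ACLY was 0.529, 0.527 and 0.577 in the FT libraries and 0.266, 0.242 and 0.273 in the WT libraries. Both ratios were similar in all FT libraries, FT_1 included, although each of these genes was highest there.

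**Figure D3:**
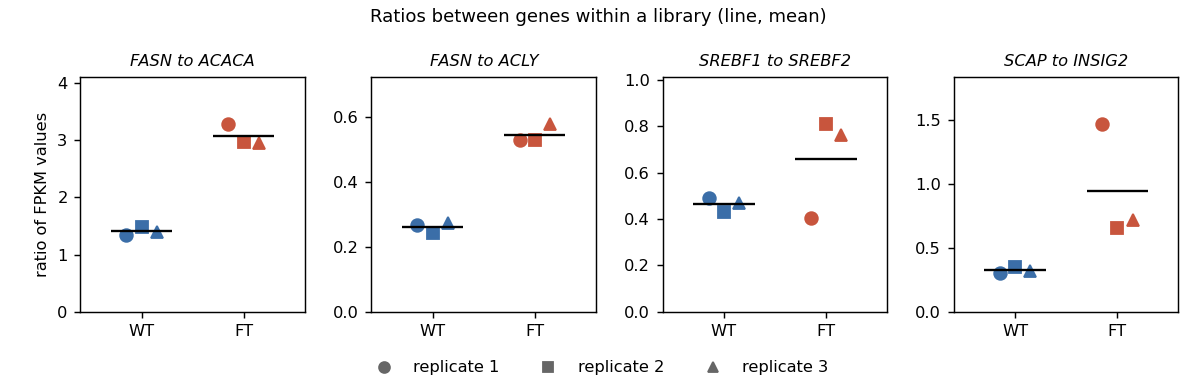
Ratios of FPKM values between pairs of genes within each library, with circles, squares and triangles for replicates 1, 2 and 3 of WT (blue) and FT (red) and lines for means. FASN to ACACA and FASN to ACLY are close in all FT libraries (2.95 to 3.28 and 0.527 to 0.577), whereas FT_1 stands apart from the other FT libraries for SREBF1 to SREBF2 and SCAP to INSIG2.

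FT_1 was the highest of all libraries for SCAP, ACLY, ACACA and FASN, 4 of 8 genes (27.1% of all tested genes). The epithelial marker sum was also highest in FT_1, at 310.01. For SREBF1, INSIG1, SREBF2 and INSIG2 the value in FT_1 was 0.404, 0.583, 0.782 and 0.828 times the mean of FT_2 and FT_3. The part of the epithelial markers in these values was not tested. KRT5, KRT8 and KRT18 were also above 0 in FT_2 and FT_3, and without FT_1 edgeR called these 3 of 4 tested epithelial markers higher (30.6% of all genes). All 3 were at 0 in every WT library, so only a rise could be called. The other tested marker, CDH1, had a log2 fold change of -0.28 without FT_1 (edgeR adjusted p = 0.254). The epithelial sums of FT_2 and FT_3, 11.04 and 10.83, lay within the WT range of 7.83 to 13.86. FT_2 and FT_3 had on average 1.91 times the WT mean of FASN, 1.49 times that of SCAP and 2.76 times that of SREBF1.

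By level, WT cells had the most INSIG2 RNA per length (mean FPKM 25.3), followed by ACLY (22.2), SREBF2 (18.6), SREBF1 (8.61), SCAP (8.18), FASN (5.78), INSIG1 (4.65) and ACACA (4.13). INSIG2 and ACLY overlapped over the WT libraries, as did SREBF1 and SCAP, and INSIG1 and ACACA. In FT cells SREBF2 came first (28.1), then ACLY (24.1), SREBF1 (19.03), INSIG2 (16.7), SCAP (15.3), FASN (13.1), ACACA (4.23) and INSIG1 (4.05). There the values of neighbours in the order overlapped, except those of FASN and ACACA.

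SREBF1, ACLY, ACACA and FASN share chromosome 19, 4 of the 8 genes. On that chromosome 845 genes were tested by edgeR, of which 24.1% were called higher and 14.6% lower, with a median log2 fold change of 0.14. For all tested genes the shares were 20.1% and 18.9% and the median 0.03. Without FT_1 the shares on chromosome 19 were 35.4% and 26.3% and the median 0.09. For all genes they were then 30.6% and 31.5%, with a median of -0.02.

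Genes were also ranked by how closely their profile over the 6 libraries matched FASN and INSIG2, the most positive and most negative edgeR fold changes over all 6 libraries, as the root mean square difference of mean-centred log2 CPM. Without FT_1 the fold change of SREBF1 was larger than that of FASN (1.63 and 1.10). STK17B (0.0379), MLLT6 (0.0548) and MYO1D (0.0645) were nearest to FASN. STK17B had an FPKM of 35.82, 20.76 and 23.15 in FT_1 to FT_3 and 11.95, 10.77 and 11.76 in WT_1 to WT_3. TRIM25 (0.0376), NAPEPLD (0.0741) and METTL25 (0.0764) were nearest to INSIG2.

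Lists of pathway genes set these genes in context. The counts are to be read against the shares of all tested genes, which were 20.1% higher and 18.9% lower in edgeR, 30.6% and 31.5% without FT_1, and 15% and 29.2% in limma. Each list gene named in the following as called kept its direction and its call in edgeR without FT_1. Besides the genes above, 8 genes of SREBP processing were tested, of which 0 were called higher by edgeR and 1 lower, RNF139, which encodes a ubiquitin ligase of the endoplasmic reticulum. RNF139 had a mean FPKM of 11.4 ± 1.54 in FT and 18.5 ± 0.529 in WT libraries, and its edgeR log2 fold change was -0.54 (SE 0.11, adjusted p = 0.0110). MBTPS1, the protease that makes the first cut, was near the threshold at 0.34 (95% interval 0.08 to 0.61, edgeR adjusted p = 0.0504) and was called without FT_1 at 0.24 (edgeR adjusted p = 0.00983). At an unadjusted p under 0.05 MBTPS1 alone would be added as higher, and limma called 0 of these 8 higher and 1 lower. Without FT_1, edgeR called 2 of these 8 higher and 3 lower. Over the whole list, with the 5 regulators above, 3 of 13 were called higher and 1 lower, with a median of -0.04. Without FT_1 these became 5 and 4 with a median of 0.03, and by limma 2 and 2.

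Partners and inputs of SREBP transcription were counted next. Of 11 tested, edgeR called 4 higher (20.1% of all genes) and 0 lower (18.9%, with 0 also at an unadjusted p under 0.05), with a median log2 fold change of 0.39; limma called 3 and 0, and without FT_1 edgeR called 6 and 1 of 12. The nuclear receptor gene NR1H2, which encodes LXR beta, was 0.48 (SE 0.07, edgeR adjusted p = 0.00350) and NR1H3, which encodes LXR alpha, 0.39 (SE 0.11, edgeR adjusted p = 0.0387), but NR1H3 was not called by limma (0.20, adjusted p = 0.154). USF2 and MLX, which encode transcription factors of the helix-loop-helix leucine zipper class, rose by 0.63 and 0.81 (edgeR adjusted p = 0.00367 and 0.00527).

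In a list of kinase genes and LPIN1, whose products act on SREBPs or on ACACA, kinase genes were called in both directions and LPIN1 was not called. edgeR called 6 of 12 higher (20.1% of all genes) and 2 lower (18.9%), with a median of 0.50; without FT_1 these were 8 and 2 with a median of 0.25, and by limma 4 and 2. PRKAG2, a regulatory subunit gene of AMP-activated kinase, had an FPKM of 11.57, 9.66 and 9.51 in FT_1 to FT_3 and 36.24, 42.54 and 35.71 in WT_1 to WT_3, so that no FT library came near a WT library. PRKAG2 fell by 1.74 on the log2 scale (SE 0.11, edgeR adjusted p = 6.12e-04). STK11, which encodes a kinase upstream of AMP-activated kinase, rose by 0.79 and AKT2 by 0.70 (edgeR adjusted p = 0.00118 and 0.00162), whereas GSK3B fell by 0.44 (edgeR adjusted p = 0.00562).

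**Figure D4:**
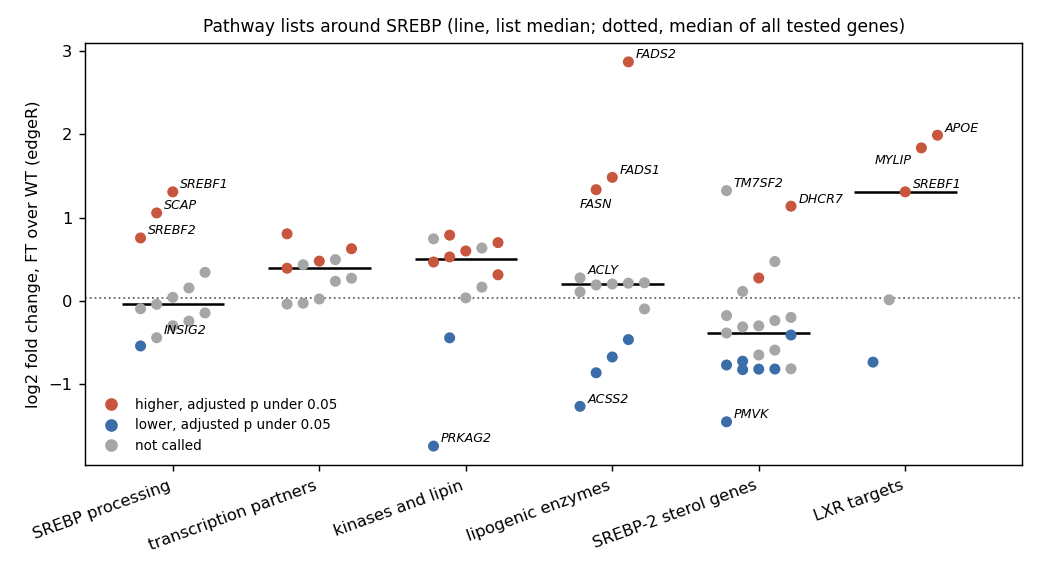
Log2 fold change of FT over WT from edgeR for each tested gene of 6 pathway lists, red for genes called higher, blue for genes called lower and grey for the rest, with a line at each list's median and a dotted line at 0.03, the median of all tested genes. The sterol genes driven by SREBP-2 lie mostly below the dotted line (median -0.38), and FADS2 is the highest point of all lists.

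Lipogenic genes were called in both directions, in shares near those of all genes. Of 14 tested, edgeR called 3 higher (20.1% of all genes) and 4 lower (18.9%), with a median of 0.20; without FT_1 these were 5 and 5 (30.6% and 31.5% of all genes) with a median of 0.02, and by limma 3 and 4. Beside FASN, the called rises were the PUFA desaturase genes FADS1 and FADS2. FADS2 had an FPKM of 11.72, 16.29 and 16.90 in FT_1 to FT_3 and 2.25, 2.13 and 2.50 in WT_1 to WT_3. It was several times higher in each FT library than in any WT library, with FT_1 the lowest of the FT libraries, a log2 fold change of 2.87 (SE 0.18, edgeR adjusted p = 5.59e-04). FADS1 rose by 1.48 (SE 0.24, edgeR adjusted p = 0.00573).

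The 4 called falls were in ACSS2, OXSM, ELOVL6 and ACACB. ACSS2, which makes acetyl-CoA from acetate, fell by 1.26 on the log2 scale, from an FPKM of 2.41 ± 0.247 to 0.897 ± 0.135 (edgeR adjusted p = 0.00433). OXSM, a synthase gene of the separate mitochondrial fatty acid pathway, fell by 0.86 (edgeR adjusted p = 0.00281), the elongase gene ELOVL6 by 0.46 (0.0173) and ACACB, which encodes the carboxylase at the mitochondrial membrane, by 0.67 (0.0458). SCD, the stearoyl-CoA desaturase gene and a classic SREBP target, was 13.5 ± 1.76 in FT cells and 13.1 ± 0.397 in WT cells. The SCD values overlapped, at a log2 fold change of 0.20 with a 95% interval of -0.09 to 0.49 (edgeR adjusted p = 0.218), and it was called without FT_1 at 0.30 (edgeR adjusted p = 0.00883).

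Most sterol genes driven by SREBP-2 had fold changes below 0, while SREBF2 itself was up-regulated. Of 21 tested, edgeR called 2 higher (20.1% of all genes) and 7 lower (18.9%), with a median of -0.38 against 0.03 for all genes. The fold change was below 0 for 16 of the 21, and for 14 every FT library was lower than every WT library, where 36.9% of all tested genes were. Without FT_1, edgeR called 3 higher and 14 lower (30.6% and 31.5% of all genes), with a median of -0.49, and limma called 1 and 12 (15% and 29.2%).

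Early steps of the mevalonate pathway were among the falls. HMGCS1, the hydroxymethylglutaryl-CoA synthase gene, had an FPKM of 10.22, 8.55 and 9.42 in FT_1 to FT_3 and 20.21, 19.47 and 15.96 in WT_1 to WT_3. All FT libraries were lower than the lowest WT library, and HMGCS1 fell by 0.82 on the log2 scale (SE 0.12, edgeR adjusted p = 0.00370). FDPS, the farnesyl diphosphate synthase gene, fell by 0.82 and the acetyl-CoA acetyltransferase gene ACAT2 by 0.72 (edgeR adjusted p = 0.00180 and 0.00363).

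SQLE and TMEM97 were singled out after their values were seen. SQLE, the squalene epoxidase gene, fell by 0.82 (edgeR adjusted p = 0.00422). Against the list, DHCR7, a reductase of the final steps to cholesterol, rose from 8.43 ± 0.927 to 16.6 ± 0.737 (log2 fold change 1.14, SE 0.11, edgeR adjusted p = 0.00123), and TMEM97, the other called rise, was 0.28 (edgeR adjusted p = 0.0270) and was not called by limma (0.11, adjusted p = 0.215).

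SREBF1 is also a known target of the LXR receptors. Of 5 tested LXR targets, SREBF1 included, edgeR called 3 higher and 1 lower. Without FT_1 these were 4 and 1, and by limma 2 and 1. MYLIP, which encodes a ubiquitin ligase, had an FPKM of 5.23, 14.99 and 14.21 for FT_1, FT_2 and FT_3, and 3.55, 3.43 and 3.84 in WT_1 to WT_3. As for SREBF1, FT_1 lay between the WT libraries and the other FT libraries, and MYLIP rose by 1.83 (SE 0.41, edgeR adjusted p = 0.0156). APOE had 6.75, 18.23 and 14.43 in FT_1 to FT_3 and 3.58, 3.58 and 3.96 in the WT libraries, the same order of groups, and rose by 1.99 (SE 0.37, edgeR adjusted p = 0.00873). The sterol exporter gene ABCA1 fell by 0.73 (SE 0.15, edgeR adjusted p = 0.0135).

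**Figure D5:**
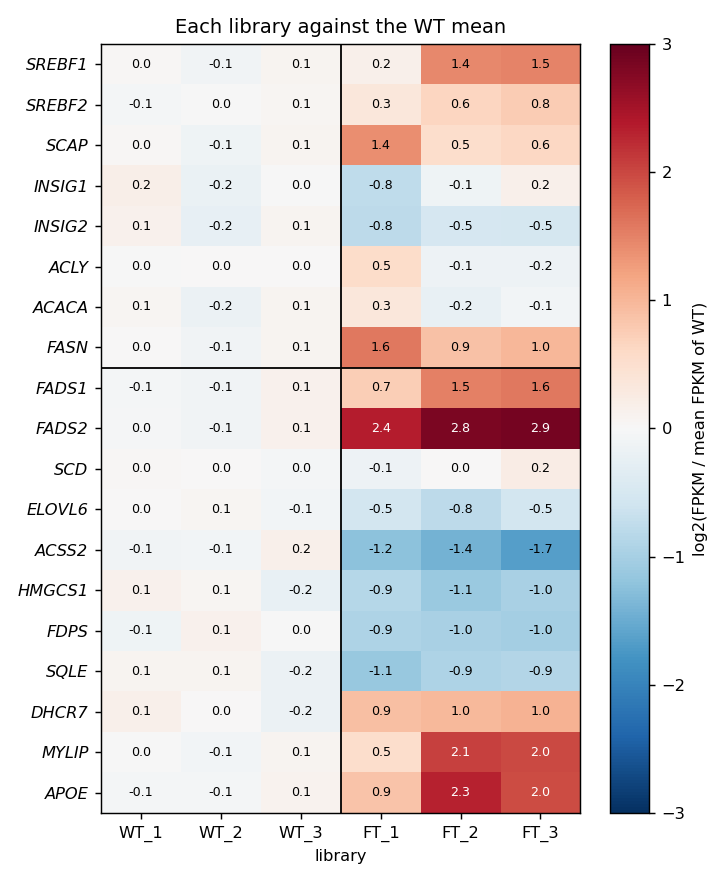
Log2 of FPKM over the WT mean for each library, with the 8 genes above the horizontal line and 11 genes of the pathway lists below it, chosen after their values were seen. FT_1 is near the WT mean for SREBF1 (0.2, against 1.4 and 1.5 in FT_2 and FT_3) and farthest from it for FASN (1.6, against 0.9 and 1.0), while HMGCS1, FDPS and SQLE are below 0 in each FT library.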

How the data were processed

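Poly(A) RNA of 6 libraries (3 FT, 3 WT) was analysed from the gene table the authors deposited, which holds raw counts and FPKM values for every library. For the counts and FPKM the authors mapped reads with HISAT, and StringTie and edgeR gave the expression estimates. The submitters' processing notes name HISAT2 2.0, StringTie 1.3.0 and Bowtie 0.12.2. Those notes name the build mm8, a mouse build, which the cattle gene identifiers of the table contradict, so the build behind its coordinates is not known. The strand setting and the treatment of reads shared between genes are not given in the sources used here.

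Groups came from the sample labels. Counts were tested in R 4.3.3 with edgeR 4.0.16 (quasi-likelihood test, TMM factors, filterByExpr) over the whole table, with Benjamini-Hochberg adjustment over all tested genes, and 95% intervals from its t distribution. FPKM values were tested with limma 3.58.1 on log2(FPKM + 1), with an intensity trend and a mean FPKM of at least 0.5. DESeq2 1.42.0, other scalings and filters, a length offset, a replicate block and leaving out each library were alternatives. The fits were tested on simulated data with the same spread in every library, so that check did not cover a library as far from its group as FT_1. Single FPKM values had a two-sided exact permutation test.

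The members and lists were chosen with earlier results of these data known. Named genes were the 8 members, the 4 genes of each pathway list with the smallest edgeR p, any gene of the SREBP processing and lipogenic lists, and the 3 genes nearest in profile to the members with the most positive and most negative fold changes. SQLE, TMEM97 and LPIN1 were named besides, SQLE and TMEM97 after their values were seen. The listed genes MBTPS2, MID1IP1, NSDHL, EBP, CEBPA, DGAT2, AFP, SERPINA1, PTPRC, MYOD1 and MYOG were not analysed here, and some other listed genes are not reported here by name. MLXIPL, PRKAA2, THRSP and ABCG1 did not pass edgeR's filter on low counts. For NFYB, which has 2 rows, the row with the larger total was used.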

Additional observations from a re-analysis of the deposited data

How the results depend on the processing

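FASN kept its direction and call under every alternative run, and SREBF2 under all but the threshold of the methods, which its log2 fold change of 0.76 did not reach, with log2 fold changes of 1.10 to 1.46 and 0.65 to 0.87 over the fits without 1 library. SREBF1 kept its direction but lost the call in limma with pseudocounts 1 and 0.1 and without a filter (0.96, 1.02 and 0.96), with the block (with or without the length offset), and on leaving out any library but FT_1. SCAP lost it in limma without a filter (0.78), with the block and length offset together, and without each WT library in turn. INSIG2 gained the call in limma with pseudocounts 1 and 0.1 and without a filter (-0.57, -0.59 and -0.57), in DESeq2 (-0.44), with library totals only (-0.59) and in limma without FT_1 (-0.48), an alternative added after the data were seen, and also in edgeR without FT_1 or without WT_2. In each of these fits 1 member was called lower in place of 0. Signs turned, with no call in any fit, for INSIG1 without FT_1 (0.18; limma 0.013) and without WT_1 (0.06), for ACLY in limma without FT_1 (-0.14), and for ACACA with the length offset (-0.089) and in limma without FT_1 (-0.11). The length offset took INSIG2 to -0.24, and the called genes moved lower too: SREBF1 to 1.17, SREBF2 to 0.57, SCAP to 0.84 and FASN to 1.04. SREBF2 was 0.56 in limma on log2(FPKM + 1), and FASN was 0.997 with the block and the length offset together. The cause was not tested.

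Over the fits without 1 library the log2 fold changes ran from 1.09 to 1.63 for SREBF1, 0.74 to 1.21 for SCAP, -0.27 to 0.18 for INSIG1, -0.55 to -0.35 for INSIG2, 0.02 to 0.39 for ACLY and 0.03 to 0.30 for ACACA. Members called higher numbered 2 to 4 and lower 0 to 1, and all genes called 1516 to 4215 higher and 1531 to 4337 lower. Limma without a filter called 1744 genes and 2 members higher. Limma without FT_1 called 5118 genes lower, and the threshold of the methods 1378 higher and 1208 lower. Over the members' fold changes, 114 alternative values kept both direction and side of the threshold, 15 lost the call, 8 gained it and 7 changed sign. The 114 include values of INSIG1, ACLY and ACACA, which were called in no fit.

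The replicate numbers did not pair the libraries: deviations of same-numbered libraries correlated at -0.00, -0.02 and 0.02, and 1 of 6 libraries correlated best with its own number. With the replicate block, edgeR called 1838 genes higher and 1741 lower, and SREBF1 was 1.20 (adjusted p = 0.0747). With the block and the length offset together it called 1691 and 1673 genes and 2 members higher, with SREBF1 at 1.06, SCAP at 0.79 and ACACA at -0.11.

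Counts of the members were at least 617 in every library. With 3 libraries per group and FT_1 apart from the others, intervals were widest for SREBF1, and all were narrower without FT_1.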
